A study of Ovis aries with 18 samples.

Results

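The genes described here are 8 listed genes of the DNA damage response and of apoptosis that are used as markers of embryo quality: MDM2, CDKN1A, BAX, BAK1, BCL2, BCL2L1, MCL1 and BIRC5. They were taken by symbol from a table of raw counts for 20092 genes. The table used here held 6 of the 8, and all 6 were among the 16488 genes tested. CDKN1A and BCL2L1 matched no row by symbol, RefSeq synonym or LOC identifier and were not analysed here.

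Embryos were produced by Polypay rams on a control or a methionine diet. The 3 methionine-treated rams (Ram424, Ram498 and Ram511) received 1.5 g of rumen-protected methionine, methionine coated so that rumen microbes do not break it down, as a top-dress of 0.22% on the control diet. The 3 control rams (Ram410, Ram423 and Ram444) received the same feed without it. Feeding lasted 77 days from a mean age of 88 days, and ewes bred to these rams were flushed on day 8 for early to hatched blastocysts. RNA of 5 embryos was pooled and amplified for sequencing, with 6 pools per diet. Each control ram was the sire of 2 pools. Of the methionine pools 4 came from Ram424, 1 from Ram498 and 1 from Ram511, so pools of a ram are not independent animals of their diet. The question was whether the diet of the sire was accompanied by a difference in these genes in the embryos.

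MDM2 is a ubiquitin ligase that keeps the response to DNA damage switched off in healthy cells. When DNA is damaged this brake is released, and genes are switched on that arrest the cell cycle, such as CDKN1A, or that favor cell death. Death by the mitochondrial route is decided in the BCL2 family: BAX and BAK1 open the outer mitochondrial membrane, BCL2, BCL2L1 and MCL1 hold them in check, and the BH3-only proteins tip the balance, after which caspases carry out the dismantling of the cell. In blastocysts some cells die by apoptosis in normal development, mostly in the inner cell mass.

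A pool held 1017847 to 2398589 counts. That is far fewer than the reads per pool that the paper reports, and the reason was not tested. Low counts here therefore do not reflect the full sequencing depth. Levels are given as CPM, the count of a gene scaled to a common library size and normalized by the trimmed mean of M values (TMM). Pool Embryo444_2 (control) and pool Embryo511_1 (methionine) stood apart from the other 10. Their Spearman correlations with other pools over the tested genes were 0.526 to 0.626, compared with 0.806 to 0.955 among the 10. The 6 measured trophectoderm markers, such as the keratin KRT8, summed to 195 CPM in pool Embryo444_2 and 128 CPM in pool Embryo511_1, compared with 5124 to 14328 CPM in the 10. None of the 6 was at 0 in all 12 pools. The 4 measured inner cell mass markers summed to 92.7 and 259 CPM, compared with 320 to 840 CPM in the 10. In pool Embryo511_1 the 5 measured sperm and testis markers summed to 1079 CPM and the 4 oocyte markers to 719 CPM, compared with 36.0 to 119 and 90.7 to 149 CPM in the 10. Of these sums in Embryo511_1, TNP1 alone gave 1008 CPM of the first and ZP3 alone 410 CPM of the second. The hypoblast markers summed to 273 CPM in Embryo444_2 and 289 CPM in Embryo511_1, compared with 419 to 961 CPM in the 10. The cumulus and granulosa markers summed to 123 and 128 CPM, compared with 52.9 to 83.7 CPM. The uterine epithelium markers were at 157 and 305 CPM, compared with 72.1 to 220 CPM. The blood markers lay within the range of the 10 in both pools. Both pools were kept in the test, and values over the 10 remaining pools are given beside those over 12. Without Ram424 only pools Embryo498_1 and Embryo511_1 remained on methionine, so values given without that ram rest in part on a pool that stood apart. In bulk pools, fewer cells of a type and less RNA per cell cannot be told apart.

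None of the 6 genes passed the test for diet. With edgeR's quasi-likelihood test, 0 of the 6 had an FDR under 0.05, as did 0 of all genes tested (0%). By DESeq2 16 genes and by the likelihood-ratio test 5 genes passed, none of them among the 6. At an unadjusted p under 0.05, 1 of the 6 was higher in the methionine pools (BAK1) and 0 were lower, beside 7.92% of all genes (3.55% higher and 4.37% lower). The values of the diets overlapped for all 6, and 0.352% of all genes had no overlap. The median log2 fold change (methionine minus control) was 0.25 over the 6 and 0.0051 over all genes tested. Over the 10 pools it was 0.14 for the 6, and again only BAK1 had an unadjusted p under 0.05, beside 11.9% of all genes.

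BAK1 was the member with the largest difference between diets. Like BAX, BAK1 forms pores in the outer mitochondrial membrane, but it sits there already in healthy cells. In the control pools the lowest, median and highest levels were 21.9, 43.5 and 80.0 CPM, and in the methionine pools 50.1, 119 and 195 CPM. The methionine pools fell into a high and a lower set: 171 CPM in pool Embryo424_1, 175 CPM in pool Embryo424_2 and 195 CPM in pool Embryo511_1, above all control pools, and 50.1 CPM in pool Embryo424_3, 50.6 CPM in pool Embryo498_1 and 66.9 CPM in pool Embryo424_4, within the control range. Both sets thus held pools of Ram424. The means were 118 ± 69.0 CPM (SD, n = 6) and 46.3 ± 21.7 CPM (SD, n = 6). The log2 fold change was 1.35 (SE 0.41, 95% interval 0.48 to 2.21), which is 2.54-fold (1.40 to 4.64). The unadjusted p of the quasi-likelihood test was 0.00444, rank 112 of 16488, and the FDR was 0.584. On mean log2 CPM, an exact permutation test (two-sided) over all assignments of pools gave p = 0.0368. Over the 6 ram means the exact permutation p was 0.1, the smallest that 20 assignments allow. In mean CPM, however, the rams of the diets overlapped, with 50.6 CPM in methionine Ram498 and 55.1 CPM in control Ram423.

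The BAK1 difference was smaller without the pools that stood apart. Over the 10 pools it was 0.99 (SE 0.38, 95% interval 0.19 to 1.80), with an unadjusted p of 0.0184 and an FDR of 0.348 by the quasi-likelihood test, and an exact permutation p of 0.135. Pools Embryo424_1 and Embryo424_2, whose gene levels resembled each other more than those of any other pair (Spearman 0.955), were the remaining high ones. With these left out as well, a choice made after the values were seen that leaves only methionine pools within the control range, the log2 fold change was 0.13. With the ram taken into account the 12-pool difference was 1.43 with pools summed per ram (unadjusted p 0.0134) and 1.22 with ram as a random effect (unadjusted p 0.0355), neither with an FDR under 0.05.

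BAX, which moves from the cytosol into the mitochondrial membrane when a cell is stressed, did not share this pattern. Its lowest, median and highest levels were 11.3, 24.8 and 42.1 CPM in the control pools and 9.03, 20.1 and 31.8 CPM in the methionine pools. The highest value was in control pool Embryo423_1 and the lowest in methionine pool Embryo498_1, and the ranges overlapped. Between the diets BAX differed by a log2 fold change of -0.29 (SE 0.35, 95% interval -1.03 to 0.44) with an FDR of 0.844, and -0.41 over the 10 pools. It was -0.083 without Embryo423_1, -0.14 without Embryo498_1 and -0.96 without Ram424. A BAX difference of the size seen for BAK1 lies outside that interval. The pools with high BAK1 had 24.4 CPM (Embryo424_1), 21.5 CPM (Embryo424_2) and 16.9 CPM (Embryo511_1) of BAX.

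**Figure D1:**
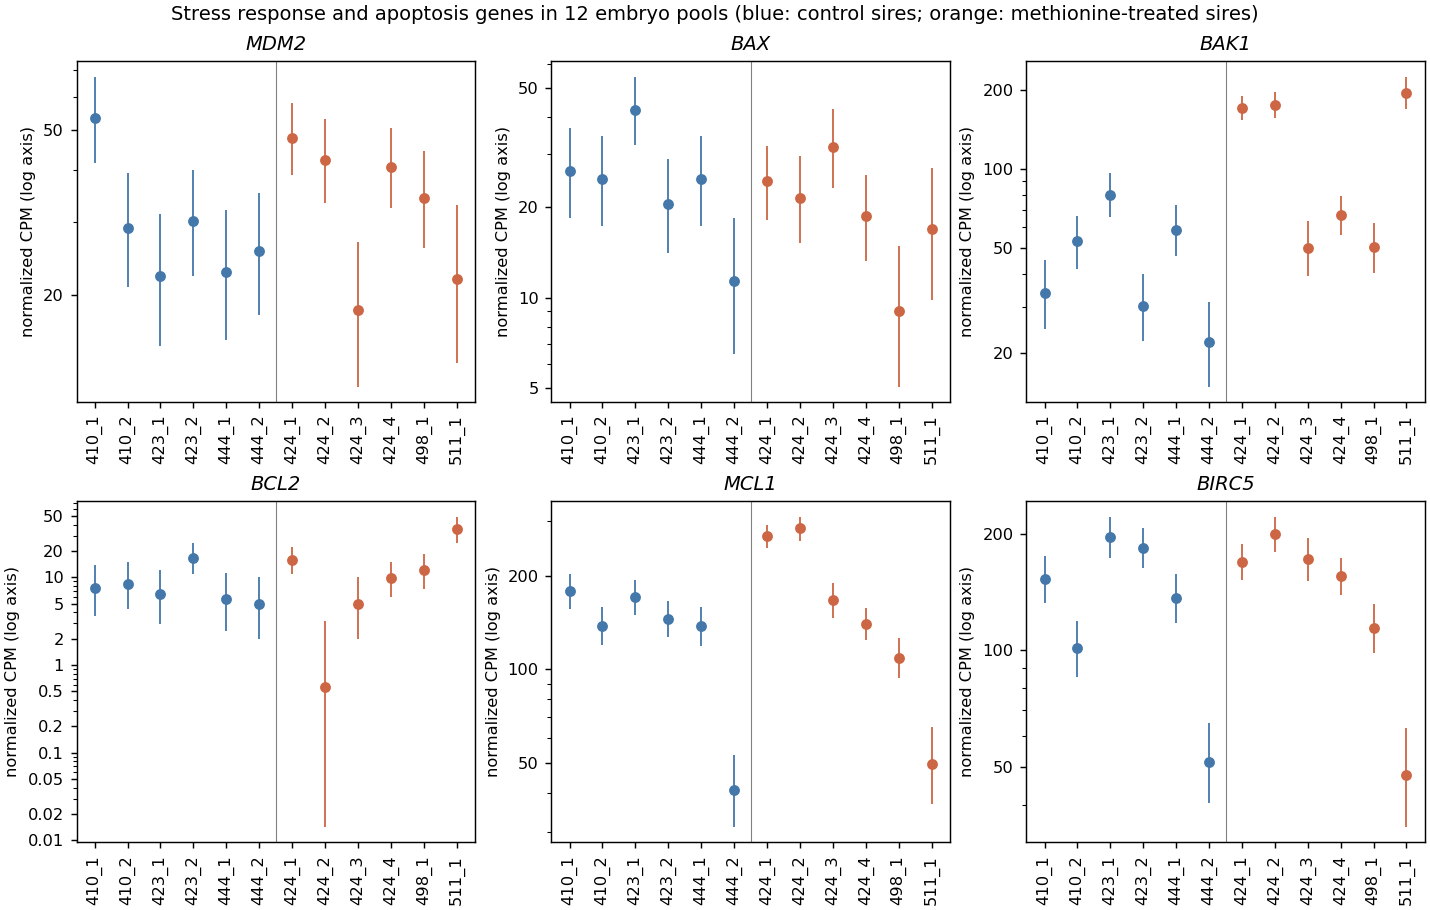
Normalized CPM (log axis) of the 6 genes in each of the 12 pools, control sires in blue and methionine-treated sires in orange; bars are exact 95% Poisson intervals, which cover counting error only. BAK1 reaches 171 to 195 CPM in 3 methionine pools, and MCL1 and BIRC5 are lowest in pools Embryo444_2 and Embryo511_1.

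The pro-survival members were BCL2 and MCL1. BCL2, which binds pro-death relatives on the mitochondrial membrane, was near the limit of detection in these counts, with 1 to 36 per pool. It reached the minimum of 15 counts in 1 control pool and 4 methionine pools, so it passed the filter mainly through methionine pools. Its lowest, median and highest levels were 4.96, 6.98 and 16.7 CPM in the control pools and 0.566, 10.9 and 35.7 CPM in the methionine pools. Both extremes were methionine pools: 36 reads gave 35.7 CPM in pool Embryo511_1, and 1 read gave 0.566 CPM in pool Embryo424_2 (exact 95% Poisson interval 0.0143 to 3.15 CPM). For BCL2 the log2 fold change was 0.62 (SE 0.60, 95% interval -0.65 to 1.88) with an FDR of 0.804. It was -0.055 over the 10 pools and 0.064 without pool Embryo511_1 alone. Without Ram424, with only Embryo498_1 and Embryo511_1 left on methionine, it was 1.50 (quasi-likelihood test, unadjusted p 0.0244, FDR 0.487).

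MCL1, a short-lived protein that must be made continuously to protect a cell, had levels of 41.1, 142 and 178 CPM (lowest, median, highest) in the control pools and 49.6, 154 and 284 CPM in the methionine pools. Pools Embryo424_1 and Embryo424_2 were highest, at 268 and 284 CPM, and the pools that stood apart, Embryo444_2 and Embryo511_1, were lowest. The other 8 pools lay between 109 and 178 CPM. For MCL1 the log2 fold change was 0.33 (SE 0.40, 95% interval -0.52 to 1.18) with an FDR of 0.847, and 0.32 over the 10 pools. The direction rested on Ram424: without it, with only Embryo498_1 and Embryo511_1 left on methionine, the value was -0.76. With pools summed per ram it was -0.070.

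MDM2, which is induced by DNA damage and then limits the response to it, had levels of 22.1, 27.3 and 53.4 CPM (lowest, median, highest) in the control pools and 18.4, 37.6 and 47.8 CPM in the methionine pools. The highest pool was the control pool Embryo410_1 and the lowest the methionine pool Embryo424_3, so the control range held all methionine pools but Embryo424_3 and Embryo511_1. MDM2 had a log2 fold change of 0.18 (SE 0.31, 95% interval -0.48 to 0.83) with an FDR of 0.899. It was 0.22 over the 10 pools and -0.11 without Ram424. MDM2 did not fall outside the range of the 10 pools in either pool that stood apart, at 25.5 CPM in Embryo444_2 and 21.8 CPM in Embryo511_1.

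BIRC5 encodes survivin, which both opposes apoptosis and serves the chromosomal passenger complex in dividing cells. Its levels were 51.7, 144 and 196 CPM (lowest, median, highest) in the control pools and 47.6, 162 and 199 CPM in the methionine pools. BIRC5 varied least of the 6 genes over the 10 pools, with 1.97-fold between the highest and the lowest pool. The log2 fold change was 0.064 (SE 0.36, 95% interval -0.69 to 0.82) with an FDR of 0.976, and 0.063 (95% interval -0.41 to 0.54) over the 10 pools. The direction turned in 9 of 30 settings, with -0.25 for pools summed per ram and -0.75 without Ram424. Its 3 partners in the passenger complex had log2 fold changes of 0.28 (the kinase AURKB), 0.070 (INCENP) and 0.45 (CDCA8), and none passed the test.

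**Figure D2:**
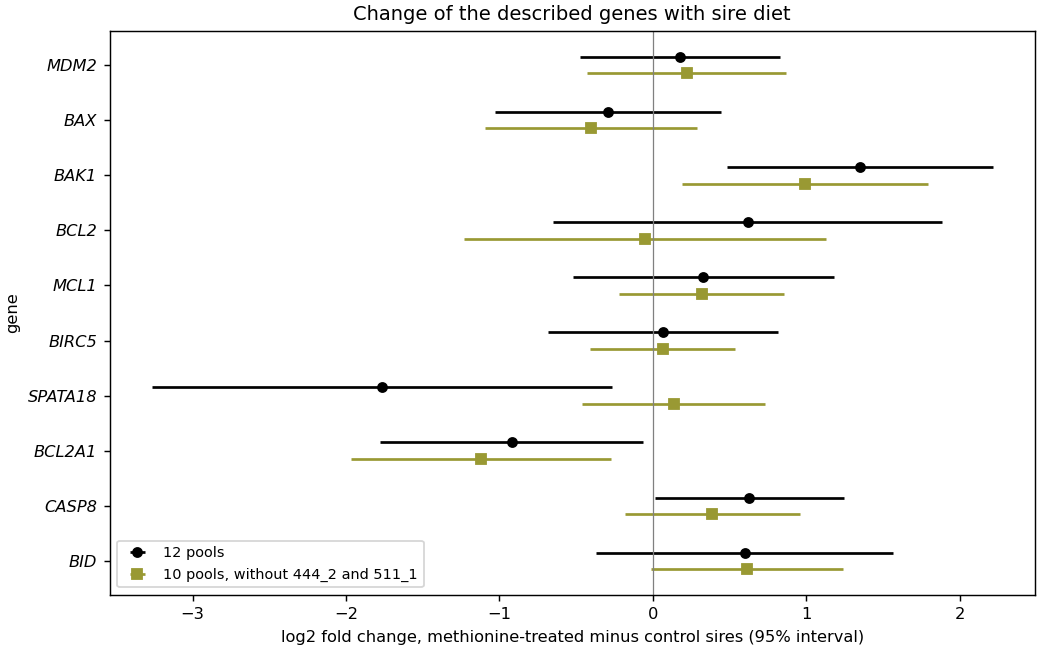
Log2 fold change (methionine-treated minus control sires) with its 95% interval for the 6 genes and 4 related genes, over 12 pools (circles) and over the 10 pools without Embryo444_2 and Embryo511_1 (squares). Only the BAK1 and BCL2A1 intervals stay on the same side of 0 in both, and neither gene passed an FDR of 0.05; SPATA18 and BCL2 change sign.

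In the pools that stood apart MCL1 and BIRC5 were both low, while BAK1 was low in one and high in the other. Pool Embryo444_2 lay below the range of the 10 pools for 3 of the 6 (BAK1, MCL1 and BIRC5) and above it for 0. Pool Embryo511_1 lay below for 2 (MCL1 and BIRC5) and above for 2 (BAK1 and BCL2). Over all genes tested, 46.5% in pool Embryo444_2 and 51.6% in pool Embryo511_1 lay outside that range, whereas 13.4% to 26.6% did in each of the 10 pools against the other 9. The member counts of these pools are thus near their shares over all genes. Among the 10, Embryo424_2 had 4 of the 6 outside the range of the other 9, 1 below and 3 above. MCL1 at 41.1 and 49.6 CPM and BIRC5 at 51.7 and 47.6 CPM were low together with the trophectoderm markers. BAK1 and BCL2 were highest in Embryo511_1, which had the highest sums of sperm, oocyte, uterine epithelium, and cumulus and granulosa markers. The sperm and oocyte sums came mostly from TNP1 and ZP3. The part of these markers in the levels was not tested.

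Pools of the same ram also differed from each other. In Ram424 the highest pool exceeded the lowest by 3.49-fold for BAK1, 2.60-fold for MDM2, 2.02-fold for MCL1, 1.70-fold for BAX and 1.28-fold for BIRC5. BCL2 spanned 27.9-fold there because of the pool with 1 read. The control rams without a pool that stood apart also varied: the range was 1.06-fold for BAX to 1.84-fold for MDM2 in Ram410, and 1.06-fold for BIRC5 to 2.65-fold for BAK1 in Ram423, where BCL2 spanned 2.59-fold and BAX 2.05-fold. The biological coefficient of variation in the model was 0.490 for BAK1, 0.492 for MCL1 and 0.666 for BCL2, above the median of 0.408 over the genes tested, and 0.369 for MDM2, below it.

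**Figure D3:**
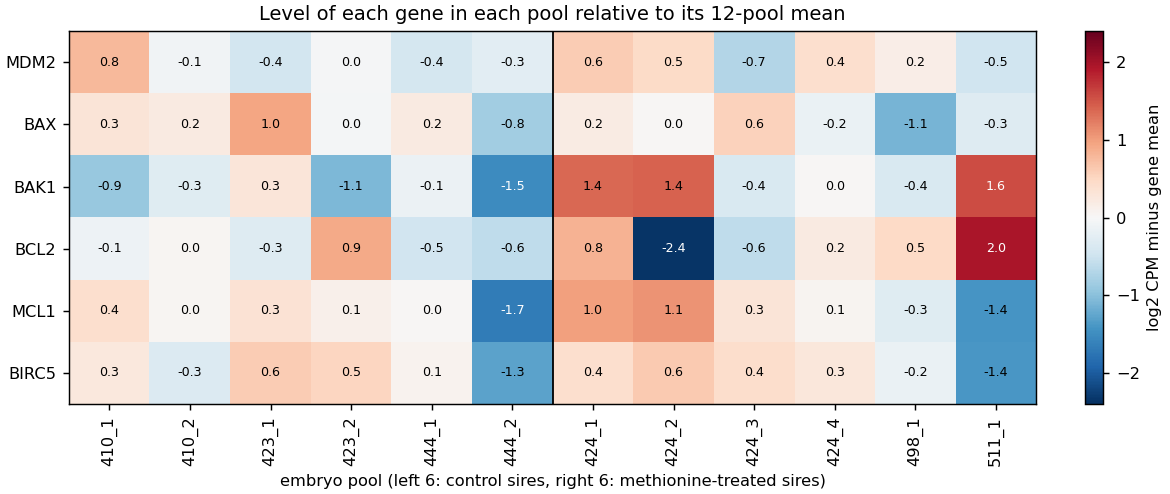
Log2 CPM of each gene in each pool minus the mean of that gene over the 12 pools, control sires left of the line and methionine-treated sires right. BAK1 is raised in pools Embryo424_1, Embryo424_2 and Embryo511_1, MCL1 and BIRC5 are low in Embryo444_2 and Embryo511_1, and BCL2 is lowest in Embryo424_2, where it had 1 read.

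The balance of a pro-death and a pro-survival transcript is often given as the ratio of BAX to BCL2. In read counts the ratio was 1.23 to 6.56 in the control pools (median 3.21) and 0.472 to 38.0 in the methionine pools (median 1.72). The ranges overlapped, and the highest ratio came from 38 reads against 1 (exact 95% interval 6.42 to 1540). The lowest was 0.472 in pool Embryo511_1, with 17 BAX and 36 BCL2 reads. The ratio of BAX to BAK1, chosen after the values were seen, was 0.422 to 0.778 in the control pools (median 0.521) and 0.0863 to 0.634 in the methionine pools (median 0.161). Pool Embryo424_3, at 0.634, was the methionine pool within the control range, and the other 5 were below all control pools. Ratios of reads do not correct for gene length and are compared between pools only.

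The genes that most resembled each member were found by the root mean square difference of centered log2 CPM over the 12 pools, among 16487 candidates. MCL1 had the closest, PSMB7 (a proteasome subunit) at 0.13 and EI24 at 0.16, and BIRC5 had RBMS1 at 0.16 and SEM1 at 0.18. MCL1 and BIRC5 were closer to each other (0.31) than to any other member. BAK1 was nearest to MIDN (0.45) and KIAA0930 (0.46), and its distances to the 5 other members were 1.01 (BAX) to 1.34 (BCL2). MDM2 was nearest to EIF4G3 and SPPL3 (0.20 each), BAX to PHF23 (0.27) and LRRTM2 (0.28), and BCL2 to TSSC4 (0.49) and RCCD1 (0.56). All points share the same libraries, and the 2 pools that stood apart weigh heavily in the distances.

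Beyond these genes, 73 other genes of the stress response and apoptosis pathways were listed, of which 60 were tested. With the quasi-likelihood test 0 of the 60 had an FDR under 0.05. At an unadjusted p under 0.05 there were 1 higher and 2 lower in the methionine pools, 5.0% of the 60 beside 7.92% of all genes. With the ram taken into account none of these 3 kept a p under 0.05: with pools summed per ram the unadjusted p was 0.0662 for SPATA18, 0.0865 for BCL2A1 and 0.0707 for CASP8, and with ram as a random effect 0.497, 0.121 and 0.106. In direction 31 were higher and 29 lower, with a median log2 fold change of 0.033. Most were within 0.5 of 0 on the log2 scale: 85.0% of the 60 and 75.3% of all genes. Over the 10 pools 6 of the 60 (10%) had an unadjusted p under 0.05, beside 11.9% of all genes, and 0 passed the FDR. Among them were BCL2A1 (-1.12), the deubiquitinase USP7 (-0.90), the adaptor TRADD (-0.71), the checkpoint kinase CHEK1 (0.57) and the protease HTRA2 (0.65), all but BCL2A1 named after their values were seen. The remaining one of the 6, a target of the stress response, was higher in the methionine pools (0.69).

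By class, the targets of the stress response, genes that DNA damage induces, were higher in the methionine pools for 13 of 19, with a median of 0.27 (0.16 over the 10 pools), beside 8325 of 16488 over all genes, and only SPATA18 had an unadjusted p under 0.05, in the lower direction. How far the direction of these targets rests on pools Embryo424_1 and Embryo424_2, the pair most alike, was not tested. Of the regulators of the stress response 3 of 10 were higher, and of the BH3-only genes 4 of 7. The caspase class, which also held caspase activators and other cell death factors, had 5 of 11 higher. Of the inhibitors of apoptosis 2 of 4 were higher, and of the death receptor pathway 1 of 5 was higher. The medians of the regulators (-0.068) and of the caspase class (-0.051) turned to 0.054 and 0.11 over the 10 pools. No class had a member past the FDR. BCL2L10, BOK, CASP6, ENDOG and BIRC7 were in the table but below the filter, with at most 19 counts in any pool.

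**Figure D4:**
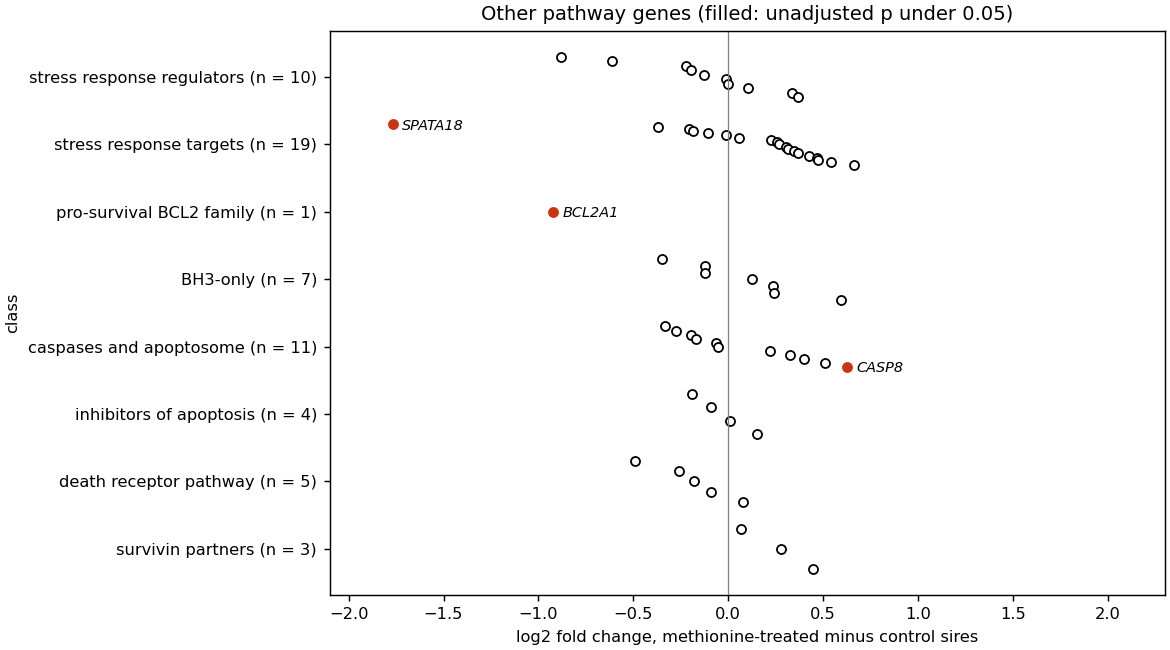
Log2 fold change (methionine-treated minus control sires, 12 pools) of the 60 other pathway genes by class, each point a gene; filled red points have an unadjusted p under 0.05 and none passed an FDR of 0.05. Of the 3 filled points, SPATA18 and BCL2A1 are lower and CASP8 is higher.

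The 3 genes with an unadjusted p under 0.05 differed in what they rested on. SPATA18, a gene induced by DNA damage that acts in mitochondrial quality control, had a log2 fold change of -1.77 (SE 0.71, unadjusted p 0.0236, FDR 0.591), carried by 394 CPM in pool Embryo444_2, where the 10 pools had 15.6 to 36.7 CPM. It was 0.099 without that pool alone and 0.13 without both pools that stood apart.

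BCL2A1, a pro-survival relative of BCL2, was the gene of these 3 whose difference grew without the pools that stood apart. Its lowest, median and highest levels were 6.37, 15.2 and 22.5 CPM in the control pools and 4.23, 7.93 and 12.4 CPM in the methionine pools, with 6 to 35 counts per pool. The log2 fold change was -0.92 (SE 0.40, unadjusted p 0.0362, FDR 0.608), with an exact permutation p of 0.0563. Without the pools that stood apart it was -1.12 (unadjusted p 0.0124, FDR 0.320), with an exact permutation p of 0.0238. The diets overlapped in the 12 pools. Over ram means the exact permutation p was 0.1, and without Ram423 the log2 fold change was -0.52 (unadjusted p 0.251). CASP8, the initiator caspase of the death receptors, had 0.63 (SE 0.29, unadjusted p 0.0466, FDR 0.620), its highest value being 62.5 CPM in pool Embryo511_1, and 0.39 over the 10 pools.

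BID links the death receptors to the mitochondria: once cleaved by caspase 8, it activates BAX and BAK1. Its lowest, median and highest levels were 5.66, 18.9 and 33.6 CPM in the control pools and 3.97, 33.9 and 48.7 CPM in the methionine pools, with the lowest pool of each diet being the one that stood apart. The log2 fold change was 0.60 (SE 0.46, FDR 0.752) and 0.61 over the 10 pools (unadjusted p 0.0541, FDR 0.429). Without Ram424, with only Embryo498_1 and Embryo511_1 left on methionine, it was -0.61, so the direction turned without that ram.

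In sperm of the sires, bisulfite sequencing covered a cytosine that the authors annotated to intron 3 of BID, at position 229980280 of chromosome 3 (plus strand, Oar_rambouillet_v1.0). The site had been selected as different between these same rams, so its levels are a description without a test. Methylation was 94.4% (17 of 18 reads), 100% (28 of 28) and 100% (21 of 21) in control Ram410, Ram423 and Ram444. In the methionine-treated rams it was 39.1% (9 of 23) in Ram424, 41.7% (5 of 12) in Ram498 and 37.5% (6 of 16) in Ram511, with Wilson 95% intervals from 18.5% to 68.0% across the 3. The diets did not overlap at this cytosine. The 3 covered cytosines 9, 31 and 61 bases downstream had 95.2% to 100% in all 6 rams. Whether the rams differed in DNA sequence at the site, which these read counts alone cannot show, was not tested. All 3 methionine-treated rams were low at the site, while the BID transcript was at 32.4 to 48.7 CPM in the 4 pools of Ram424, 21.1 CPM in that of Ram498 and 3.97 CPM in that of Ram511. The relation of the site to the transcript was not tested.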

How the data were processed

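RNA was measured in 12 pools of 5 embryos and sperm DNA methylation in the 6 sires, grouped by the diet and ram in their labels. The authors deposited raw read counts per gene and pool, from trimmed reads aligned with STAR to Oar_rambouillet_v1.0. Whether reads were counted by strand is not given in the sources used here, so overlapping antisense genes cannot be told apart. The deposited methylation values are counts of methylated and unmethylated reads per cytosine, made by the authors with Bismark.

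A gene was tested if more than 3 pools had 15 or more counts, which left 16488 of 20092. Diet was tested after TMM normalization in edgeR 4.0.16 (R 4.3.3) by the quasi-likelihood method, two-sided, and p-values were adjusted by Benjamini-Hochberg over all genes tested. The SE is the absolute log2 fold change divided by the root of the F statistic. Exact permutation tests compared mean log2 CPM (prior count 2). Alternatives used DESeq2 1.42.0 and limma 3.58.1. The quasi-likelihood test was also run on simulated counts with independent pools and the same variation for all genes. That setting lacks the likeness of pools of a ram and the pools that stood apart, so it does not cover them. The common biological coefficient of variation was 0.450 and limma's consensus correlation between pools of 1 ram was 0.263. P-values over pools measure the spread between pools that may share a sire and dams. The intervals of levels, of read ratios and of methylation cover counting error only, and amplified reads are not independent molecules. Those of the log2 fold changes come from the SE and include the spread between pools, but not the sharing of a ram. Pools Embryo424_1 and Embryo424_2 differed by a chi-square of 3.31 per gene, beyond counting noise but less than other pools of a ram (8.46 to 26.9), and were kept as separate samples by their labels. Amplifying the same RNA again could also exceed counting noise, so an alternative summed them.

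The members and lists were chosen with earlier results of these data known. Named were all members, pathway genes with an FDR under 0.05 or an unadjusted p under 0.05, BID, listed genes below the filter, and the 2 genes most like each member. CDKN1A, BCL2L1 and the BAX to BCL2L1 ratio were not analysed here, and some genes of the pathways are not reported here and were left out of the list and its counts. Annotation of the BID site is the authors' own. Figures used Python 3.11.15 and matplotlib 3.10.9.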

Additional observations from a re-analysis of the deposited data

Results flagged for a closer look

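Among 20 groups of 6 pools (10 genes in each diet), 4 had a pool far from the rest by Dixon's criterion on log2 CPM, a criterion that chance meets in about 5% of groups. Pool Embryo410_1 was the highest control pool for MDM2, at 53.4 CPM. Pool Embryo444_2 was the lowest control pool for MCL1, at 41.1 CPM, and the highest for SPATA18, at 394 CPM. Pool Embryo511_1 was the lowest methionine pool for BID, at 3.97 CPM. Of the 4, 3 were in the pools with trophectoderm markers of 195 CPM (Embryo444_2) and 128 CPM (Embryo511_1), and the part of cell composition in these values was not tested.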

How the results depend on the processing

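The number of genes with an FDR under 0.05 was 0 by edgeR's quasi-likelihood method (1306 had an unadjusted p under 0.05), 5 with the likelihood-ratio test and 16 with DESeq2; on the 10 pools, an alternative chosen after seeing the data, it was 1, and 101 with DESeq2. None of the 6 members had an FDR under 0.05 in any of 30 settings. The settings share pools and are not separate checks, and leaving out Ram498 or Ram511 repeats leaving out its only pool. BAK1 was higher in the methionine pools in all 30, at 1.15 to 1.57 (log2) with unadjusted p of 0.00143 to 0.0355 in the 26 planned ones, and 0.13 (p 0.695) in the 8 pools also without Embryo424_1 and Embryo424_2. BAX was lower in all 30, at -0.96 to -0.083. MDM2 ranged from -0.11 to 0.45 when pools or rams were left out and was -0.0055 in the 8 pools. BCL2 was -0.055 on the 10 pools, -0.051 with DESeq2 there and -0.00048 in the 8 pools. MCL1 was -0.070 with pools summed per ram, -0.030 with ram as a random effect, -0.76 to 0.52 over the leave-outs and -0.15 in the 8 pools. BIRC5 was -0.25, -0.15, -0.75 to 0.37 and -0.065 in the same order, and -0.026 with Embryo424_1 and Embryo424_2 summed. SPATA18 was -2.21 to 0.099 over the leave-outs (0.099 without Embryo444_2), 0.13 on the 10 pools, 0.14 with DESeq2 there and 0.29 in the 8 pools. BID was -0.61 to 1.02 over the leave-outs, -0.61 being without Ram424. DESeq2 on 12 pools gave no p for SPATA18, and on 10 pools no adjusted p for BCL2 and BCL2A1. The cause was not tested. No paired analysis was possible because no replicate number is shared between the diets. With 6 pools from 3 rams per diet and BCL2 at 1 to 36 counts, small differences were not detectable.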
